A study of Mus musculus with 14 samples.

Results

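The histone deacetylase (HDAC) family was described across mouse embryonic stem (ES) cell lines. The members are the 10 genes *Hdac1*, *Hdac2*, *Hdac3*, *Hdac4*, *Hdac5*, *Hdac6*, *Hdac7*, *Hdac9*, *Hdac10* and *Hdac11*, taken by symbol from a table of 23298 genes. All 10 passed the filters on low values in both models. The 14 lines are F1 hybrids of C57BL/6J (B) and CAST/EiJ (C) mice with the maternal strain written first. They form 5 groups: 3 BC XX, 3 BC XY, 2 BC XO, 3 CB XX and 3 CB XY lines. Each line was derived from a single blastocyst, and no line received a drug or carried an engineered allele. All were kept undifferentiated with serum and LIF on inactivated embryonic fibroblasts, which were depleted in 2 steps before RNA was taken. The BC XO lines, with a single X and no Y, come from 1 of the 2 crosses, and number 2.

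HDACs remove acetyl groups from lysines of histones and other proteins, and acetyltransferases add them. Class I enzymes (*Hdac1*, *Hdac2*, *Hdac3*) work in the nucleus inside corepressor complexes such as Sin3, NuRD, CoREST and NCoR. Class IIa members (*Hdac4*, *Hdac5*, *Hdac7*, *Hdac9*) have little deacetylase activity of their own, bind MEF2 transcription factors, and leave the nucleus when kinases of the CaMK, PKD and SIK families phosphorylate them. Class IIb holds *Hdac6*, a mainly cytoplasmic tubulin deacetylase, and *Hdac10*, a polyamine deacetylase, and *Hdac11* alone makes up class IV. In ES cells, Hdac1 is known as a major deacetylase of the corepressor complexes.

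Values are a read signal per gene. The authors had brought the lines to similar totals, from 28150946 to 30657803. The smallest step between values, taken as 1 read, puts the depth between 11904397 reads in CB XY 2 and 69646272 reads in BC XX 2, and the lowest value of any member (56.1, *Hdac11* in CB XX 2) lies well above 3 reads of that line (3.66). A fold change is a difference of log2(value + 5) with its standard error (SE), and understates changes of low genes. Each p-value comes from limma and was adjusted by the Benjamini-Hochberg method across every gene that was tested, with 0.05 as the threshold. Markers of ES cells were present in every line (13 of 13 at a value of 10 or more). The 28 mesenchyme markers, which fibroblast feeders would carry, were also all at 10 or more in every line, with summed values of 204696 to 445424 in the 3 BC XX lines and of 69074 to 121174 in the other 11. For the Y-linked gene *Uty*, CB XY 2 and CB XY 3 (as labelled) had values of 19.6 and 45.4, against 945 to 2088 in the BC XY lines and 1149 in CB XY 1, so calls that are lost without them are named beside the result. *Uty* was 12.8 to 195 in the XX lines, and BC XX 3 also had 1024 for the Y-linked *Ddx3y* (1085 in CB XY 1), and the highest values of all lines for *Eif2s3y* (317) and *Kdm5d* (123). The X-linked *Xist* was 3875 to 4374 in BC XX lines and 3803 in CB XX 3. It was 1723 in CB XX 1 and 1445 in CB XX 2, beside 801 to 1650 in the XY and XO lines. In these bulk samples, fewer cells of a type and less RNA per cell cannot be told apart.

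Of the 10 members, *Hdac5* was the one whose level passed the test in any comparison, and it was lower in BC XX lines than in both BC XY and BC XO lines. In the 3 BC XX lines, which had the most mesenchyme marker RNA, it sat with *Hdac4* at the low end, and *Hdac9* was at the high end in BC XX 2 and BC XX 3. The letters before the starts of these 3 class IIa genes are shown because the results turn on them. They are the 250 bases before a RefSeq start, 5′ to 3′ on the gene's strand, from a table of build GRCm38.p6, which holds 7 of the 10 members. Each matched NCBIM37 (mm9) once, at the positions given. Capitals mark GC boxes (GGGCGG or its reverse complement CCGCCC, searched on both strands):
Hdac5, chr11:102091487-102091736, minus strand: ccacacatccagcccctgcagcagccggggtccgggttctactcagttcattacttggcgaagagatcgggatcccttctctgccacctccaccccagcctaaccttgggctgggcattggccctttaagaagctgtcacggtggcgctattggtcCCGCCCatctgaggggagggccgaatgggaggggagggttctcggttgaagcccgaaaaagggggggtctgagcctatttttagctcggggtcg
Hdac4, chr1:94076919-94077168, minus strand: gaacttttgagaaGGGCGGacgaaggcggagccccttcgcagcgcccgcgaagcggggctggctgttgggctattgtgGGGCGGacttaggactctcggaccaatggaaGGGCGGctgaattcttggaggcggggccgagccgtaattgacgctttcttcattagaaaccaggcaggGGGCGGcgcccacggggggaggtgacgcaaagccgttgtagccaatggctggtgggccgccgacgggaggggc
Hdac9, chr12:35213755-35214004, minus strand: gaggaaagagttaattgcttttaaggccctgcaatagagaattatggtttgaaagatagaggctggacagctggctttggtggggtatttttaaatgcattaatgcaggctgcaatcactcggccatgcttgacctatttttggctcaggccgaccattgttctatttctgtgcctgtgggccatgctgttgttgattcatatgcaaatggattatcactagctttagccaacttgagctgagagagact
The *Hdac4* stretch holds 4 GC boxes and 23 CpG dinucleotides, the *Hdac5* stretch 1 and 12, and the *Hdac9* stretch 0 and 2. Among 32851 such windows in the table, 32.7% held a GC box and the median window had 6 CpG. The *Hdac5* and *Hdac9* windows end 6 and 0 bases before the gene models used here, whereas the *Hdac4* window lies 31948 bases upstream of the *Hdac4* models. Which start these cells used was not measured.

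Per kb of exon, the class I genes and *Hdac6* gave most of the family's signal. The median over 14 lines was 2558 per kb for *Hdac1*, 958 for *Hdac2*, 543 for *Hdac6* and 378 for *Hdac3*. It was 141 for *Hdac4*, 111 for *Hdac5*, 35.2 for *Hdac10*, 28.4 for *Hdac11*, 27.5 for *Hdac7* and 9.83 for *Hdac9*. Class shares were taken over the 10 members and leave out *Hdac8*, a class I gene outside them (median 40.4 per kb). Class I held 72.8% to 89.9% of the summed signal per kb in a line, class IIb 6.23% to 20.3%, class IIa 3.45% to 9.98% and class IV 0.325% to 1.37%. In this order, the lines of *Hdac1* (1980 to 4948) lay apart from those of *Hdac2* (802 to 1189), and the lines of *Hdac3* (339 to 453) lay apart from those of *Hdac4* (76.5 to 264). All other neighbours overlapped. The SD within groups was 0.110 on the log2 scale for *Hdac2* and 0.112 for *Hdac3*, at percentiles 1.89 and 2.10 of all genes, whose median was 0.319. It was 0.468 for *Hdac9* and 0.550 for *Hdac11*, at percentiles 78.0 and 86.8.

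**Figure D1:**
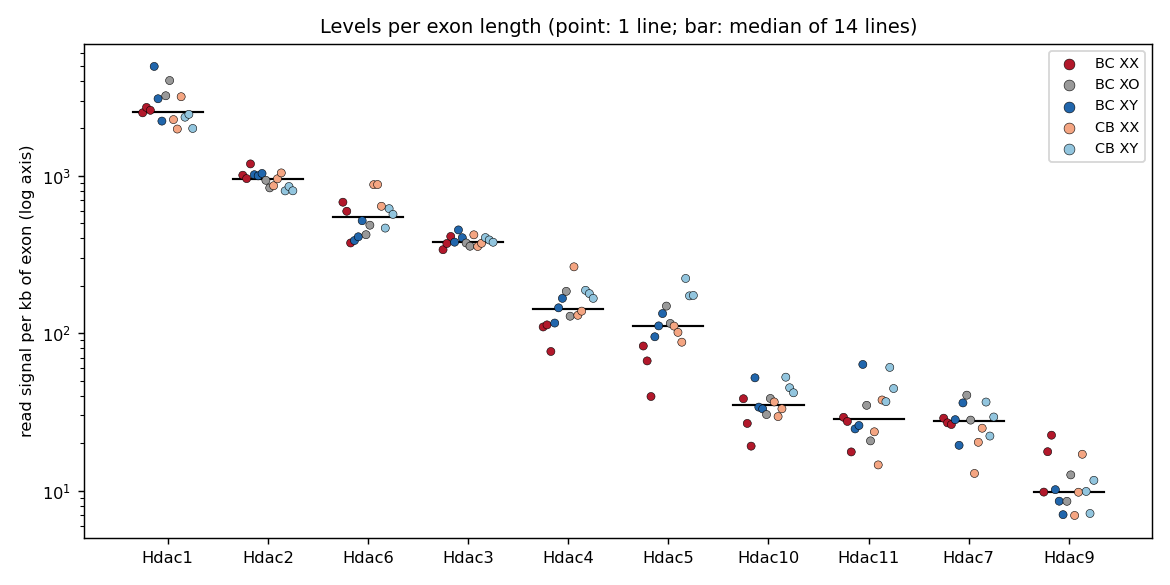
Read signal per kb of exon for the 10 members on a log axis, with 1 point per line coloured by group and a bar at the median of the 14 lines. *Hdac1* (median 2558) and *Hdac9* (9.83) are at the ends of the order, and *Hdac2* and *Hdac3* are the tightest.

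When the 6 XX were set against the 6 XY lines, 0 of the 10 members passed, while 5.21% of the 15311 genes tested did (3544 genes had an unadjusted p below 0.05, and so did 3 members). Estimates were below 0 (lower in XX) for 7 members and above 0 for 3, with a median of -0.20 against -0.03 over all genes. Within the BC cross 1 member passed, *Hdac5*, beside 5.70% of 16261 genes (1.24% lower in XX). Within the CB cross 0 passed, beside 3.57%, with 3 members at an unadjusted p below 0.05. Between BC XX and BC XO lines *Hdac5* passed again, beside 4.66% (1.61% lower in XX). Between BC XO and BC XY lines 0 passed, beside 0.00615%, which is 1 gene, with 0 members and 242 genes at an unadjusted p below 0.05. The comparisons of BC XX with BC XY and with BC XO share the BC XX lines, so their values are not independent. BC XO lines lay below all BC XY lines for *Hdac2* and *Hdac3*, whereas 17.6% of genes did not overlap.

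**Figure D2:**
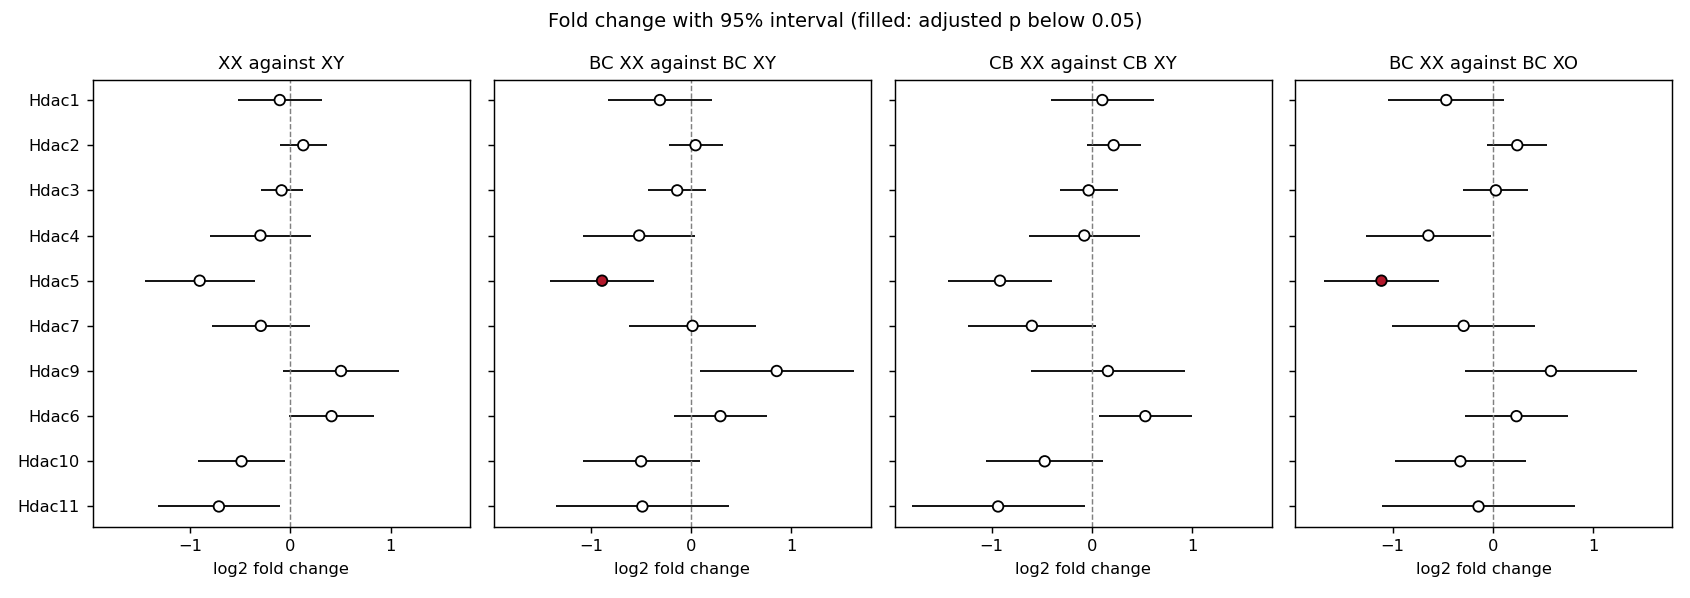
Log2 fold change of each member with its 95% interval in 4 comparisons, where values below 0 are lower in XX lines and filled points have an adjusted p below 0.05. *Hdac5* lies near -0.9 in the 3 comparisons of XX with XY and at -1.11 against BC XO, and intervals of *Hdac2* and *Hdac3* are the narrowest.

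*Hdac5* (chromosome 11, 102055746 to 102091480, minus strand, NCBIM37) had values of 728, 585 and 348 in the BC XX lines, 833, 977 and 1170 in the BC XY lines, and 1305 and 1012 in the BC XO lines. The CB XX lines had 974, 888 and 770 and the CB XY lines 1955, 1515 and 1525. XX lines were thus below XY and XO lines of the same cross without overlap, as were 27.1% of genes in either direction for BC XX and BC XY, 47.2% for BC XX and BC XO and 23.2% for the CB groups, while the CB XX lines overlapped the BC XY lines. The mean was 554 ± 192 (SD, n = 3) in BC XX against 993 ± 169 (n = 3) in BC XY, a log2 fold change of -0.89 (SE 0.24, adjusted p = 0.0455). Against BC XO it was -1.11 (SE 0.27, adjusted p = 0.0371), and in the CB cross -0.92 (SE 0.24, adjusted p = 0.0507), which missed the threshold. Over both crosses the change was -0.90 (SE 0.26, 95% interval -1.45 to -0.35, adjusted p = 0.0571). Of the 6 XY lines, 5 exceeded the highest XX line. With the cross as a covariate the adjusted p was 0.00644, without BC XY 1 it was 0.0340, and without CB XX 1 it was 0.0267. It passed under 3 of 11 alternatives, with adjusted p-values up to 0.430, and in 2 of 12 fits that left out a line, with values up to 0.126. These 3 include the replicate block, which leaves out all CB XX lines, so that sex and cross are mixed in it. Without CB XY 2 and CB XY 3 the change was -0.78 (adjusted p = 0.214) over both crosses and -1.16 (adjusted p = 0.183) in the CB cross.

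The sex difference of *Hdac5* was not separable between the crosses (interaction 0.03, 95% interval -0.70 to 0.76, adjusted p = 0.990), and BC XO did not differ detectably from BC XY (0.22, 95% interval -0.35 to 0.80, adjusted p = 0.999). Between the reciprocal crosses at the same sex, neither difference of *Hdac5* passed. BC XY lines lay below all CB XY lines (-0.75, SE 0.24, adjusted p = 0.124) and BC XX lines below all CB XX lines (-0.72, SE 0.24, adjusted p = 0.0814). In each of these comparisons, 26.8% of genes did not overlap in either direction. The study lists *Hdac5* among genes higher in XY cells of these same samples, so its direction is not independent evidence. Genes of chromosome 11 had a median log2 deviation from their medians over lines of -0.142 in BC XX 3, against -0.0606 to 0.0528 in the other lines. The part of this shift in the *Hdac5* values was not tested. Within the BC cross the *Hdac5* call was lost without BC XX 2, BC XX 3, BC XY 2 or BC XY 3, with adjusted p-values up to 0.181 (-0.59 without BC XX 3). It was also lost when CB XY 2 and CB XY 3 were left out of the model (adjusted p = 0.0693), and in the fit with the mesenchyme marker level as a covariate the change was -0.27 (adjusted p = 0.893). Against BC XO the call held in 1 of 5 fits that left out a line (without BC XX 1), and it was lost without CB XY 2 and CB XY 3 (adjusted p = 0.0580).

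**Figure D3:**
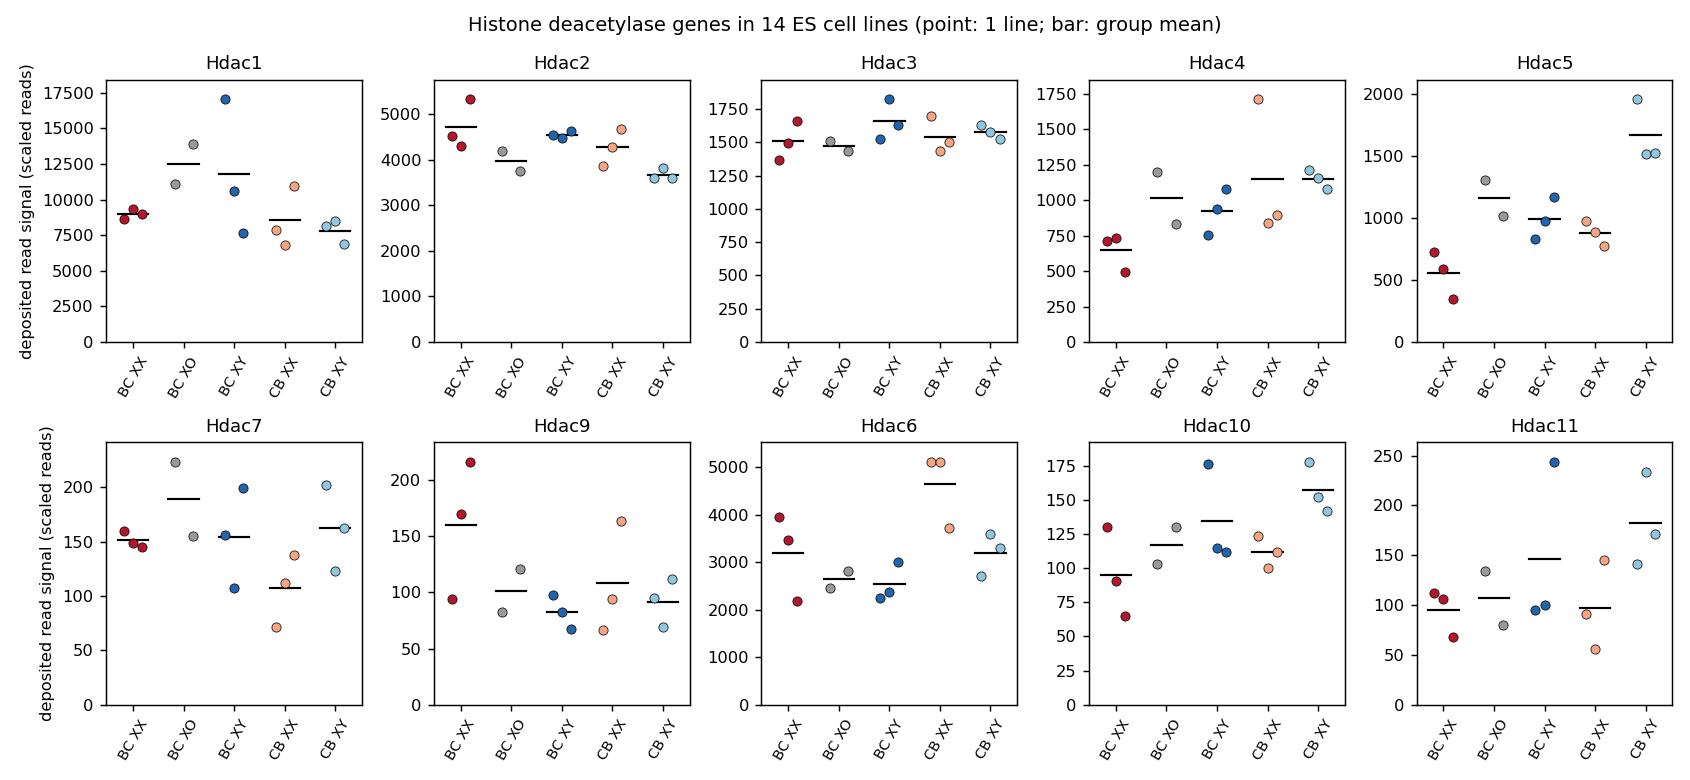
Deposited read signal of each member in every line, with 1 point per line, groups on the x axis and a bar at the group mean, on linear axes that start at 0. *Hdac5* separates XX from XY lines in each cross (348 to 728 against 833 to 1170, and 770 to 974 against 1515 to 1955), and single high points are seen for *Hdac1* in BC XY 1 (17046) and *Hdac4* in CB XX 1 (1711).

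*Hdac4* (chromosome 1, 93825362 to 94044970, minus strand), the class IIa gene nearest to *Hdac5* in level, had 710, 732 and 496 in BC XX, 752, 939 and 1079 in BC XY, 1196 and 831 in BC XO, 1711, 842 and 895 in CB XX, and 1214, 1157 and 1079 in CB XY lines. BC XX lines lay below BC XY and BC XO lines without overlap, and the CB groups overlapped because of CB XX 1. In either direction, 27.1% of genes did not overlap between BC XX and BC XY, and 47.2% between BC XX and BC XO. The log2 fold change was -0.52 (SE 0.26, adjusted p = 0.253) within BC, -0.08 (SE 0.26, adjusted p = 0.909) within CB and -0.64 (SE 0.29, adjusted p = 0.196) against BC XO. Over both crosses it was -0.30 (adjusted p = 0.477), and -0.50 (adjusted p = 0.0728) without CB XX 1. In that line the genes of chromosome 1 had a median log2 deviation of 0.308 from their medians over lines, against -0.0912 to 0.132 in the other 13. The part of this shift in the *Hdac4* value was not tested. *Hdac4* exons overlap a noncoding gene on the opposite strand, *Gm17418*, and the strand setting of the counting is not given in the sources used here.

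*Hdac9* (chromosome 12, 34732451 to 35213754, minus strand) ran the other way. Its values were 94.0, 170 and 216 in BC XX, 97.4, 82.3 and 67.6 in BC XY, 82.1 and 121 in BC XO, 66.8, 93.8 and 164 in CB XX, and 94.9, 68.8 and 112 in CB XY lines. BC XX 2 and BC XX 3 were the highest lines, and the groups of every comparison overlapped. In CB XX 2, genes of chromosome 12 had a median log2 deviation of -0.274, whose part in the *Hdac9* value was not tested. The log2 fold change of XX against XY was 0.51 (SE 0.27, adjusted p = 0.277), with 0.85 (SE 0.36, adjusted p = 0.171) in BC and 0.16 (SE 0.36, adjusted p = 0.856) in CB.

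*Hdac7* (chromosome 15, 97623095 to 97674933, minus strand) ranged from 71.1 to 223, with 145 to 159 in BC XX, 107 to 199 in BC XY, 155 and 223 in BC XO, 71.1 to 138 in CB XX and 123 to 202 in CB XY lines. The groups of each sex comparison overlapped, and the change was 0.01 in BC (adjusted p = 0.983) and -0.60 (SE 0.30, adjusted p = 0.297) in CB. Its exons overlap *Slc48a1* on the opposite strand, a more highly expressed gene (393 to 1058), so that its low values are uncertain.

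Mesenchyme marker RNA moved with 3 of the 4 class IIa genes and with other members. The mean log2 level of the 28 markers was 11.1, 11.8 and 12.3 in BC XX 1, 2 and 3, and 8.71 to 10.4 in the other lines, and 19 of the 28 markers were higher in BC XX than in BC XY lines and 0 lower. The BC XX lines thus lie apart in this level, and fits with it as a covariate separate it poorly from the BC XX group. Over the 14 lines, the markers' level had a Pearson correlation of 0.86 with *Hdac9*, -0.79 with *Hdac4* and -0.74 with *Hdac5*, and of 0.81, -0.73 and -0.52 after group means were removed. These describe 14 lines that share feeders, culture and scaling. *Hdac7* had a correlation of 0.17 (0.40 after group means were removed). Of the other classes, *Hdac10* had -0.57 (-0.16), *Hdac11* -0.52 (-0.53), *Hdac6* -0.12 (-0.64), *Hdac2* 0.44 (0.30), *Hdac3* -0.37 (-0.18) and *Hdac1* 0.02 (0.35). The share of all genes with correlations of such size was not taken, so these values are not shown to be particular to the family. With the marker level as a covariate, genes past the threshold in BC XX against BC XY went from 927 to 8. *Hdac4* and *Hdac5* correlated at 0.78 with each other and at -0.74 and -0.69 with *Hdac9*. In the CB cross the marker level overlapped between XX (9.04 to 10.4) and XY lines (8.72 to 10.2), 0 of 28 markers passed, and the *Hdac5* difference was -0.92, or -0.84 (adjusted p = 0.0449) with the marker level as a covariate. The genes whose log2 pattern was most like that of *Hdac5* over the 14 lines were *Btbd2* (r = 0.98), *Lrfn4* (r = 0.97) and *Klc3* (r = 0.97).

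**Figure D4:**
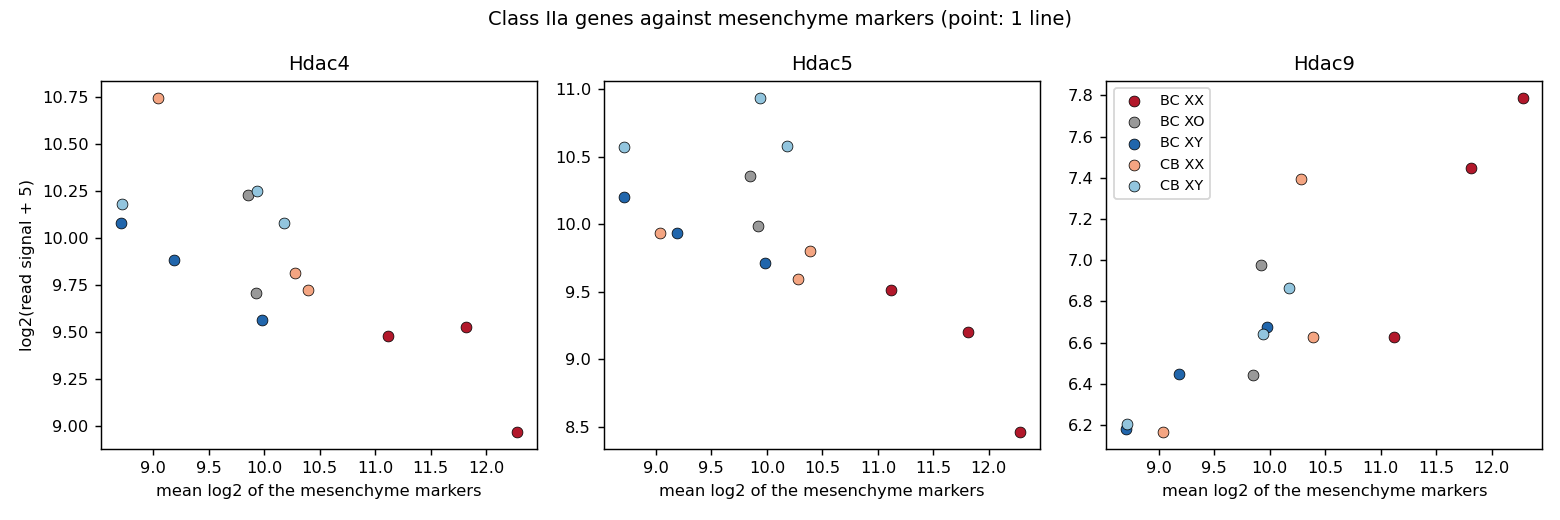
Log2(read signal + 5) of *Hdac4*, *Hdac5* and *Hdac9* against the mean log2 level of 28 mesenchyme markers, with 1 point per line coloured by group and separate y ranges. The 3 BC XX lines are at the right (11.1 to 12.3), where *Hdac4* and *Hdac5* are low, and *Hdac9* is high in 2 of them.

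*Hdac2* and *Hdac3* had the smallest spread within groups of the 10 members. *Hdac2* (chromosome 10, 36694350 to 36721695, plus strand) had 4517, 4299 and 5330 in BC XX, 4551, 4476 and 4635 in BC XY, 4194 and 3754 in BC XO, 3872, 4285 and 4672 in CB XX, and 3593, 3829 and 3597 in CB XY lines. CB XY lines were below all CB XX and all BC XY lines, but neither difference passed (CB XX against CB XY 0.22, SE 0.13, adjusted p = 0.382; BC XY against CB XY 0.31, SE 0.13, adjusted p = 0.203). Between these pairs of groups, 23.2% and 26.8% of genes did not overlap in either direction. The XX against XY change of *Hdac2* was 0.13, with a 95% interval of -0.10 to 0.36. *Hdac3*, the catalytic subunit of NCoR complexes (chromosome 18, 38095498 to 38114642, minus strand), stayed between 1365 and 1823 in all lines. Its change between XX and XY lines was -0.09, with a 95% interval of -0.30 to 0.12 (adjusted p = 0.625). Genes of chromosome 10 had a median log2 deviation of -0.209 in CB XX 2, and genes of chromosome 18 of 0.218 in BC XX 3. Their part in the *Hdac2* and *Hdac3* values was not tested.

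*Hdac1* (chromosome 4, 129193348 to 129219957, minus strand) was looser, with an SD within groups of 0.338 on the log2 scale. It had 8650, 9359 and 8974 in BC XX, 17046, 10625 and 7663 in BC XY, 11101 and 13870 in BC XO, 7833, 6822 and 10948 in CB XX, and 8115, 8461 and 6881 in CB XY lines. BC XX lines lay within the BC XY range and below both BC XO lines, beside 47.2% of genes without overlap between BC XX and BC XO. The change was -0.31 (SE 0.24, adjusted p = 0.472) in BC, -0.46 (SE 0.27, adjusted p = 0.313) against BC XO and 0.10 (SE 0.24, adjusted p = 0.862) in CB. Without BC XY 1, the BC value was -0.01.

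*Hdac6* (chromosome X, 7507246 to 7525015, minus strand) is the X-linked member. Its values were 3950, 3461 and 2177 in BC XX, 2256, 2382 and 3014 in BC XY, 2456 and 2822 in BC XO, 5108, 5116 and 3722 in CB XX, and 2706, 3596 and 3306 in CB XY lines. The CB XX lines were above all CB XY lines (23.2% of genes did not overlap there), whereas BC XX 3 was the lowest of the 14 lines. The XX against XY change was 0.41 (SE 0.20, 95% interval -0.01 to 0.83, adjusted p = 0.223), with 0.29 (SE 0.22, adjusted p = 0.449) in BC and 0.53 (SE 0.22, adjusted p = 0.201) in CB. The median over 565 X-linked genes tested was 0.65, of which 225 were higher and 1 lower in XX, and over autosomal genes it was -0.04. Without BC XX 3 the *Hdac6* change was 0.57 (adjusted p = 0.0521), and without CB XX 2 it was 0.32 (adjusted p = 0.351). With the mesenchyme marker level as a covariate it was 0.79 (adjusted p = 0.0368), the 1 of 11 alternatives that passed, and the adjusted p reached 0.732 with the replicate block.

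Of the 4 X-linked genes tested in the lists of related genes, 3 differed between XX and XY lines, and *Tbl1x*, a subunit of NCoR complexes, did not pass (0.30, SE 0.11, adjusted p = 0.131). Among the 565 X-linked genes tested other than *Hdac6* and *Hdac8*, 225 were higher in XX, with a median of 0.65. *Hdac8*, a class I deacetylase that acts on cohesin, had 294, 290 and 258 in BC XX and 271, 230 and 303 in CB XX, against 189, 175 and 175 in BC XY, 158, 174 and 191 in CB XY, and 200 and 187 in BC XO lines. All 6 XX lines were above every XY and XO line. Between XX and XY lines, 3.52% of genes on all chromosomes did not overlap, a share not taken for X-linked genes alone. The *Hdac8* level was higher in XX by 0.62 (SE 0.13, adjusted p = 0.0189). Without CB XY 2 and CB XY 3 it was 0.64 (adjusted p = 0.0701), and without BC XX 1 the adjusted p was 0.0511. The call was also lost with the mesenchyme marker level as a covariate (adjusted p = 0.0761) and with the replicate block (adjusted p = 0.0509). Within BC the difference was 0.63 (adjusted p = 0.0634), within CB 0.60 (adjusted p = 0.0932) and against BC XO 0.52 (adjusted p = 0.146). *Rbbp7*, a histone-binding subunit of Sin3 and NuRD, was higher in XX (0.56, SE 0.08, adjusted p = 0.00219), and so was *Taf1*, a TFIID subunit reported to have acetyltransferase activity (0.85, SE 0.12, adjusted p = 0.00144).

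**Figure D5:**
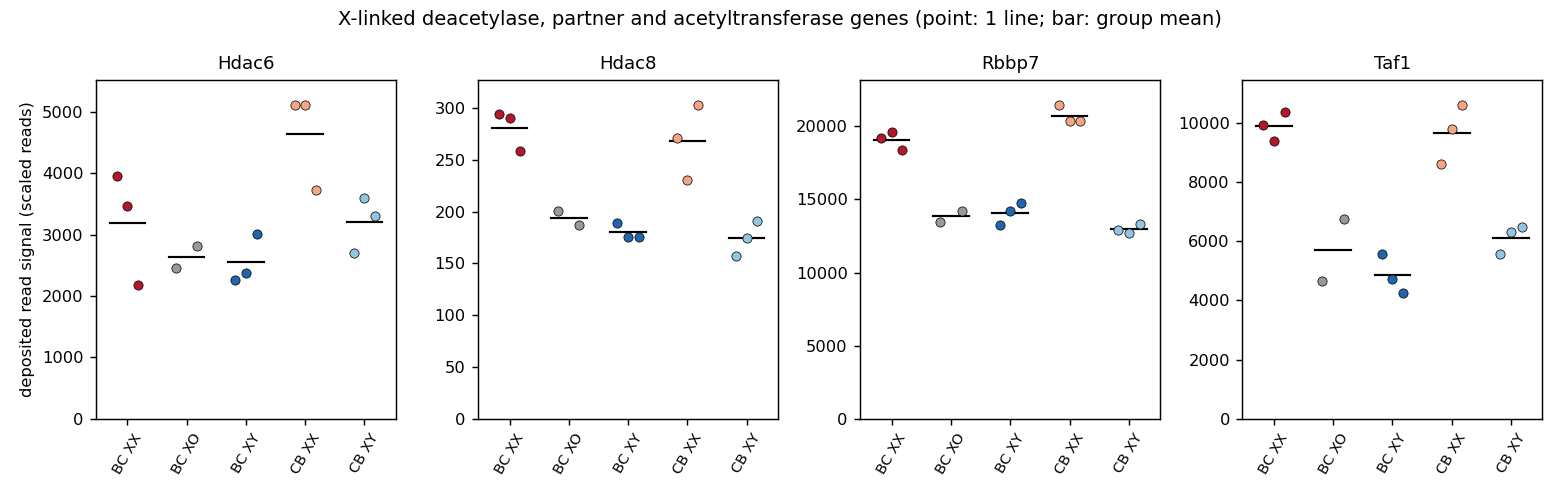
Deposited read signal of the X-linked genes *Hdac6*, *Hdac8*, *Rbbp7* and *Taf1* in every line, with 1 point per line and a bar at the group mean, on linear axes that start at 0. XX lines are above XY and XO lines without overlap for the last 3, whereas *Hdac6* in BC XX 3 (2177) lies below every XY line.

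*Hdac10* (chromosome 15, 88953733 to 88959130, minus strand) had 130, 90.4 and 64.8 in BC XX, 176, 115 and 112 in BC XY, 103 and 130 in BC XO, 124, 99.9 and 112 in CB XX, and 178, 152 and 141 in CB XY lines. The BC groups overlapped and the CB groups did not, beside 23.2% of genes without overlap between the CB groups. The XX against XY change was -0.49 (SE 0.20, 95% interval -0.92 to -0.05, unadjusted p = 0.0306 from limma, adjusted p = 0.170), with similar values in BC (-0.50) and CB (-0.47). *Hdac11* (chromosome 6, 91106659 to 91124686, plus strand) had 112, 106 and 67.8 in BC XX, 94.9, 99.8 and 244 in BC XY, 134 and 79.7 in BC XO, 91.0, 56.1 and 145 in CB XX, and 141, 233 and 171 in CB XY lines. Its groups overlapped in each sex comparison, by 1 line in CB, and the change was -0.71 (SE 0.29, adjusted p = 0.157) over both crosses. In CB XY 2 and CB XY 3, genes of chromosome 6 had median log2 deviations of 0.282 and 0.244, and in CB XX 1 of 0.209. Their part in the *Hdac11* values was not tested. An exon of *Gm14573* overlaps *Hdac11* on the opposite strand.

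Partners and regulators were taken from lists, whose counts in XX against XY stand beside 5.21% of the 15311 genes tested. Of 40 corepressor subunits and partners of class I enzymes, 1 was higher (*Rbbp7*), 0 were lower and 39 did not pass in XX against XY lines, with a median of -0.11. Of 26 partners and regulators of class IIa enzymes, 24 did not pass. *Camk1*, a calcium and calmodulin dependent kinase that can phosphorylate class IIa enzymes, had 328, 337 and 374 in BC XX, 156, 207 and 251 in CB XX, 141, 136 and 107 in BC XY, and 147, 138 and 195 in CB XY lines, and was higher in XX (0.87, SE 0.22, adjusted p = 0.0374). The change was 1.41 (SE 0.23, adjusted p = 0.00425) in BC and 0.34 (SE 0.23, adjusted p = 0.456) in CB, and over both crosses it was 0.37 (adjusted p = 0.367) with the mesenchyme marker level as a covariate and 0.98 (adjusted p = 0.0763) without CB XY 2 and CB XY 3. *Prkd2*, a protein kinase D of the same group, was lower in XX (-0.72, SE 0.18, adjusted p = 0.0316), and -0.66 (adjusted p = 0.139) without CB XY 2 and CB XY 3. The *Camk1* call held in 4 of 12 fits that left out a line, and the *Prkd2* call in 6 of 12. Of 7 sirtuins, the NAD-dependent class III deacetylases, 0 passed (median -0.32). Of 17 acetyltransferase genes, *Taf1* was higher and 16 did not pass (median -0.14, all genes -0.03).

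Within the crosses, *Rbbp7* was higher in XX lines by 0.44 in BC (SE 0.11, adjusted p = 0.0284) and 0.67 in CB (SE 0.11, adjusted p = 0.00508), and *Taf1* by 1.04 in BC (SE 0.16, adjusted p = 0.00280) and 0.66 in CB (SE 0.16, adjusted p = 0.0335). Without CB XY 2 and CB XY 3 the CB calls were lost (0.69, adjusted p = 0.0900, and 0.79, adjusted p = 0.170), and so was the BC call of *Rbbp7* (adjusted p = 0.0556). Against BC XO, BC XX lines were higher for *Rbbp7* (0.46, adjusted p = 0.0439), *Taf1* (0.82, adjusted p = 0.0242) and *Camk1* (1.10, adjusted p = 0.0325). They were lower for the NuRD subunits *Mbd3* (-1.54, adjusted p = 0.0231) and *Gatad2a* (-0.99, adjusted p = 0.0215), for *Mark2*, a class IIa kinase (-1.09, adjusted p = 0.0238), and for the acetyltransferase *Kat2a* (-0.90, adjusted p = 0.0497), and these 4 are named after their values were seen. In this comparison 4.66% of all genes passed. Not past were 37 of 40 corepressor partners, 24 of 26 class IIa partners and regulators, 15 of 17 acetyltransferases and 7 of 7 sirtuins. With the mesenchyme marker level as a covariate, 0 of the 4 lower genes passed (-1.27, -0.74, -0.63 and -0.53 in that order). Neither did *Rbbp7* (0.53, adjusted p = 0.277), *Taf1* (0.60, adjusted p = 0.387) or *Camk1* (0.58, adjusted p = 0.521). The BC XX against BC XY calls of these 3 genes were lost with it too (0.54, 0.74 and 0.73, adjusted p = 0.396, 0.394 and 0.544). The *Rbbp7* estimates were thus not smaller with the covariate, which this design separates poorly from the BC XX group. In the model without CB XY 2 and CB XY 3, the BC XO calls of *Rbbp7* (adjusted p = 0.0760) and *Kat2a* (adjusted p = 0.0764) were lost. Each of the 4 lower genes was also lost without BC XX 3 and without either BC XO line, which leaves 1 BC XO line. *Kat2a* was lost without BC XX 1 (adjusted p = 0.0537) and BC XX 2 (adjusted p = 0.0743) too, and passed under 5 of 11 other alternatives. With each line left out in turn, the BC call of *Rbbp7* held in 1 of 6 fits (without BC XY 3) and the CB call of *Taf1* in 1 of 6 (without CB XX 1). Against BC XO, *Rbbp7* passed in 0 of 5 such fits, and *Taf1* and *Camk1* in 1 of 5 (without BC XX 1).

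The reciprocal crosses were compared at equal sex. Between BC XY and CB XY lines 0 members passed, beside 0.640% of genes (3 members and 3042 genes had an unadjusted p below 0.05), and between BC XX and CB XX lines 0 passed, beside 7.15% (3 members and 4313 genes). *Hdac1* differed by 0.52 (SE 0.24, adjusted p = 0.264) between BC XY and CB XY, and 0.21 without BC XY 1. Between BC XX and CB XX, *Hdac4* differed by -0.77 (SE 0.26, adjusted p = 0.0825), *Hdac6* by -0.57 (SE 0.22, adjusted p = 0.114) and *Hdac7* by 0.53 (SE 0.30, adjusted p = 0.275). BC XX lines lay below all CB XX lines for *Hdac4* and *Hdac5* and above them for *Hdac7*, whereas 26.8% of genes did not overlap. *Hdac5* passed here without BC XX 1 (adjusted p = 0.0256), *Hdac4* without CB XX 3 (0.0471), and *Hdac6* without BC XX 1 (0.0467) or CB XX 3 (0.0492). No member passed the interaction of sex and cross, beside 0.0738% of genes (12 genes, with 1471 genes and 0 members at an unadjusted p below 0.05).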

How the data were processed

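RNA-seq of 14 ES cell lines was analysed. Per the labels and the methods, stranded total RNA libraries were read from a single end (50 bases) with alignment by TopHat2 to the mm9 build and a Cufflinks analysis (Cuffdiff in the submitters' processing notes). The table deposited by the authors holds 1 column of read signal per line, already scaled to similar totals. The 3 CB XX columns are numbered otherwise than the titles and were matched to their group alone. Libraries were made in batches that the sources do not assign to lines. Replicates are separate lines.

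Of 23298 genes, 23214 had a chromosome in GENCODE annotation of NCBIM37. Tests were run with limma 3.58.1 in R 4.3.3 (trended variance) on log2(value + 5), XX against XY on 12 lines (a value of at least 10 in 6 lines, 15311 genes) and a model of 5 groups on 14 lines (at least 10 in 2 lines, 16261 genes). Excluded were 15 genes at 0 throughout a group but at 100 or more in another line. Tables were joined with Python 3.11.15. Smallest steps were read from each line's values: 98.4% to 99.1% of low values (up to 20 steps) were within 0.05 step of a whole multiple. Depth covers counting error only.

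Genes named are the members, list genes past 0.05 in a sex comparison, the 3 genes most correlated with a member that passed, and Y-linked genes as a check of labels. Members and lists were chosen with earlier results of these data known. The limma fits of XX against XY, over both crosses and within BC and CB, were tested on simulated data. The other comparisons, alternatives and steps were not. Alternatives changed the pseudocount (1 or 20), filter (50 or none), scaling, block, covariates and lines. Keeping the genes listed at 0 was added after the data were seen.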

Additional observations from a re-analysis of the deposited data

Results flagged for a closer look

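For each member and *Hdac8*, the 6 XX and the 6 XY lines were each searched for a line far from the rest, by Dixon's criterion, in 22 groups of 6 values. It marked 3 lines, where chance marks about 1 group in 20. *Hdac1* was at 17046 in BC XY 1, and the next XY line was at 10625. *Hdac3* was at 1823 in BC XY 2, above 1630 in the next XY line. *Hdac4* was at 1711 in CB XX 1, above 895 in the next XX line, and chromosome 1 genes of that line had a median log2 deviation of 0.308. No member had a sex by cross interaction past the threshold, and none had opposite sex differences without overlap in the crosses.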

How the results depend on the processing

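Of 740 fold changes recomputed under alternatives other than leaving out a single line, 673 kept their direction and their side of the threshold, 46 were no longer past it, 8 were newly past it and 13 changed sign, 12 of these with the mesenchyme marker level as a covariate. With that covariate, *Hdac4* was 0.22 and *Hdac9* -0.070 in XX against XY. In BC XX against BC XY, *Hdac2* was -0.081, *Hdac4* 0.44, *Hdac7* -0.52, *Hdac9* -0.56 and *Hdac11* 0.61. In CB XX against CB XY, *Hdac4* was 0.038 and *Hdac9* -0.010, and in BC XX against BC XO *Hdac4* was 0.081, *Hdac9* -0.49 and *Hdac11* 0.69. Adjusted p-values of these 12 were 0.698 or more. Under quantile normalization *Hdac7* was -0.062 in BC XX against BC XY. The cause was not tested.

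The number of members past the threshold moved from 0 to 1 in XX against XY under quantile normalization, the block, the cross as a covariate (each *Hdac5*) and the mesenchyme covariate (*Hdac6*), and in CB XX against CB XY with a pseudocount of 20, quantile normalization and the mesenchyme covariate. In BC XX against BC XY and in BC XX against BC XO it moved from 1 to 0 with no filter, the block, the mesenchyme covariate, only the lines of the 2 groups compared, and without CB XY 2 and CB XY 3. In BC XY against CB XY it moved from 0 to 1 with the mesenchyme covariate. With each line left out, the count was 0 to 1 in XX against XY, BC XX against BC XY and BC XX against BC XO, 0 to 2 in BC XX against CB XX, and 0 in the other 4 comparisons. Over those fits, *Hdac1* ranged from -0.19 to 0.070 in XX against XY and -0.091 to 0.25 in the CB cross. In the BC cross, *Hdac2* ranged from -0.047 to 0.11 and *Hdac7* from -0.22 to 0.22. In the CB cross, *Hdac3* ranged from -0.10 to 0.018, *Hdac4* from -0.40 to 0.11 and *Hdac9* from -0.17 to 0.44. Against BC XO, *Hdac3* ranged from -0.042 to 0.098 and *Hdac11* from -0.50 to 0.21, and the *Hdac5* interaction ranged from -0.20 to 0.33.

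Over all genes, with no single line left out, 797 passed in XX against XY, but 1940 with the block (which has no CB XX lines), 1697 with the cross, 501 with the mesenchyme covariate and 313 without CB XY 2 and CB XY 3. In BC XX against BC XY 927 passed, and 8 with the mesenchyme covariate. In CB XX against CB XY 581 passed, 133 without CB XY 2 and CB XY 3, and 152 with only its own lines. In BC XX against BC XO 758 passed, 411 with no filter, 332 with the block, 425 without CB XY 2 and CB XY 3, and 39 with the mesenchyme covariate. In BC XO against BC XY 1 passed, and 0 to 5 under such alternatives. The interaction called 12, and 2 to 25. BC XY against CB XY called 104, and 2 to 1024. BC XX against CB XX called 1162, and 45 to 1308. With each line left out in turn, 410 (without BC XX 1) to 1746 (without CB XX 1) genes passed in XX against XY, 229 (without BC XX 3) to 992 in BC XX against BC XY, and 145 (without CB XY 1) to 653 in CB XX against CB XY. In BC XX against BC XO it was 5 without BC XO 1, 12 without BC XO 2, 70 without BC XX 3 and up to 990. It was 0 to 1 in BC XO against BC XY, 0 to 25 for the interaction, 2 to 8 in BC XY against CB XY, and 119 (without BC XX 3) to 2576 (without CB XX 3) in BC XX against CB XX, with 2015 without BC XX 1.

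The replicate block used the lines whose columns carry a number, so that CB XX lines were left out. Its XX against XY fit thus set BC XX lines alone against BC XY and CB XY lines, and sex and cross are mixed in it. Lines of the same number had correlations of their deviations from -0.494 to 0.270, and 4 of 11 lines correlated best with a line of their own number, so the numbers do not pair lines. With the replicate block *Hdac5* was -1.26 (adjusted p = 0.0293) in XX against XY, -0.89 (adjusted p = 0.0623) in BC XX against BC XY and -1.03 (adjusted p = 0.0838) against BC XO. A count test on reads recovered from the steps was not run, because the smallest values are fractions of a step. Depth limits the lowest genes most in CB XY 2, where 3 reads are worth 7.37.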
